A study of Mus musculus with 12 samples.

Results

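Genes of fatty acid synthesis and desaturation were followed in myelin purified from mouse brain. They were chosen by symbol, as 10 of the 21937 genes with a normalized read count: Acly, Acaca and Fasn of de novo synthesis, the elongases Elovl5, Elovl6 and Elovl7, and the desaturases Scd1, Scd2, Fads1 and Fads2. All 10 passed the filter on low values (a mean of 10 or more) and were among the 14634 genes tested. The study sequenced RNA of a light membrane fraction enriched for myelin by sucrose gradient centrifugation from brains of male c57Bl6/N mice, labelled WT, at 4 ages, namely P18 (postnatal day 18), P75 (day 75), 6 months and 24 months. There were 3 libraries per age and 12 in all, with no treatment. The libraries of 6 months came from individual mice, and those of the other ages carry replicate numbers only, so the p-values measure the spread between these libraries. Myelin was enriched and not isolated as pure cells: in all 12 libraries, neuronal and astrocyte genes were also detected.

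Myelin is the membrane that oligodendrocytes wrap around axons in many layers, and lipid makes up most of its dry weight. Fatty acids are made in the cytosol: ATP citrate lyase (Acly) cleaves citrate to acetyl-CoA, acetyl-CoA carboxylase (Acaca) makes malonyl-CoA from it, and fatty acid synthase (Fasn) joins these units into palmitate. At the endoplasmic reticulum, the elongases (Elovl genes) catalyse the condensation step that lengthens the chain, stearoyl-CoA desaturases (Scd genes) place the double bond of oleate, and the front-end desaturases Fads1 and Fads2 work on polyunsaturated fatty acids.

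From P75 to 6 months, 7 of the 10 genes rose and 0 fell, where 31.2% of all genes tested rose and 29.4% fell, and Fads2, the delta-6 desaturase, rose 3.92-fold. Between 6 and 24 months, 0 rose and 4 fell (Fads2, Fasn, Acaca and Acly), where 16.6% of all genes rose and 12.7% fell. Over the whole span from P18 to 24 months, Scd2, Elovl5, Fads1 and Fads2 rose, and Acaca and Elovl6 fell, where 34.7% of all genes rose and 34.3% fell. Acaca and Fads2 were called changed in all 4 comparisons, and Scd1 in none on the deposited scale. The normalized read count is the number of reads on a gene divided by a size factor of the library, without a correction for gene length, and calls of a change used a false discovery rate of 0.1 by limma with Benjamini-Hochberg adjustment over all genes tested.

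The library totals ran from 20299052 to 27214385 reads on genes. Of 7 genes listed for myelin and mature oligodendrocytes (Mag, Mog, Cnp, Mobp, Cldn11, Opalin and Ermn), 7 were detected in every group, with a summed normalized read count of 166170.1 to 349969 at P18, 103643 to 158689 at P75, 155081 to 225861 at 6 months and 169383 to 202367 at 24 months. Replicate 3 of P18 had the lowest sum of its age, and it was also the lowest of its age for 10 of the 10 fatty acid genes. The 4 markers of newly formed oligodendrocytes summed to 6196 to 6310.5 at P18 and 2903 to 3317 at P75, and 4 of them were called down over this step, while 3 precursor markers summed to 1192 to 1577 over all libraries. Most of the sum of the 4 was Fyn, with 5729 to 5872 at P18 and 2692 to 3109 at P75. From P75 to 6 months, 2 of the 4 were called up and 0 down. Neuronal markers summed to 143189 to 207356 over the 12 libraries, all 7 of them detected. From P75 to 6 months, 4 of these 7 were called up and 2 down: the synaptic vesicle gene Syt1 went from 3470.1 to 4142 up to 18059 to 22037 and the glutamate transporter gene Slc17a7 from 4571 to 6575 up to 14946 to 15474, while Snap25, of the synaptic release machinery, went from 130496 to 150174 down to 87058 to 89430.3. The sum of 6 astrocyte markers was 57394 to 66829 at P75 and 69315 to 79766 at 6 months, and the sum of 6 microglial markers was 2819.5 to 3251 and 3811 to 4509.8, with 2 astrocyte markers called up and 0 down, and 4 microglial markers up and 1 down, over this step. Endothelial markers, 4 of 4 detected, summed to 250.5 to 336, and 3 of them were called up from P75 to 6 months. Of 3 red cell genes, 2 were at 0 in all libraries. The other, Alas2, had 361.6 to 471.8 at P18 and 36.2 to 44.1 at P75, and was called down over this step. It was also called down from P18 to 24 months, where it had 32.4 to 38.9. The part of these cells in the changes given here was not tested. In such bulk RNA, fewer cells of a type and less RNA per cell cannot be told apart.

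**Figure D1:**
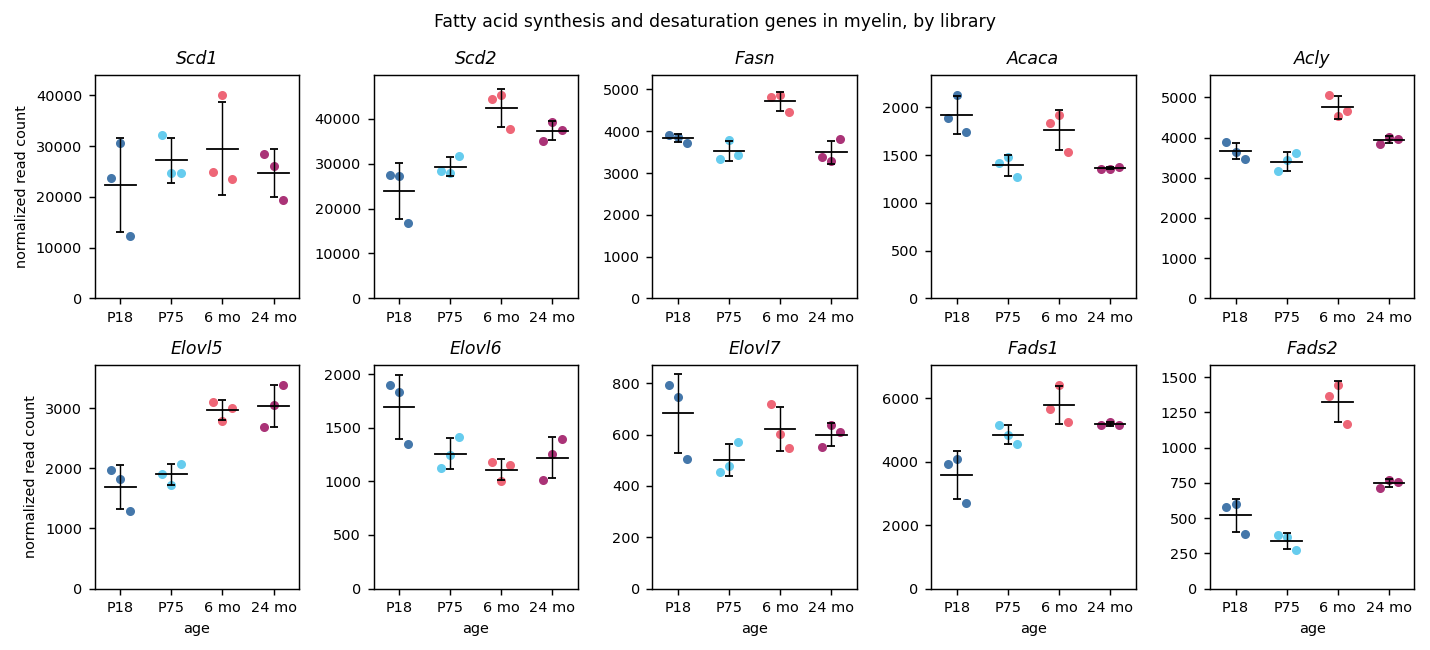
Normalized read count (y axis, linear from 0) of each of the 10 genes at 4 ages (x axis); each point is 1 library, ordered by replicate number, the long line is the mean of 3 libraries and the bar ± 1 SD. Fads2 separates the ages most clearly, with all libraries of 6 months between 1165 and 1444 and all of P75 between 273 and 378, while the libraries of Scd1 overlap at every pair of neighbouring ages in its order.

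The 10 genes lie on 5 chromosomes (NCBIM37, the build also called mm9). Scd1 (chr19:44468941-44482199, minus strand) and Scd2 (chr19:44368166-44381354, plus strand) are separated by 87.6 kb, and Fads1 (chr19:10257378-10271360, plus strand) and Fads2 (chr19:10138654-10175993, minus strand) by 81.4 kb. Fasn (chr11:120667254-120685492, minus strand), Acaca (chr11:83943174-84215153, plus strand) and Acly (chr11:100337667-100389314, minus strand) share chromosome 11. Elovl5 is at chr9:77765171-77832326, Elovl6 at chr3:129235304-129341413 and Elovl7 at chr13:109004598-109077299, all on the plus strand. Of the 50-base stretches in their longest protein-coding transcripts, 4.66% of those of Scd1 and 3.79% of those of Scd2 recur in another Scd gene. For Fads2, 0.343% recur in Fads3, and 0.779% of those of Elovl6 and 0.167% of those of Elovl7 recur in other genes. None of those of Fasn, Acaca, Acly, Elovl5 and Fads1 recur in another gene. Only protein-coding transcripts were searched for these matches. The Acaca span overlaps Gm11437 and Gm17722 on the other strand, and the Scd2 span holds a miRNA gene on the same strand. Whether strand was used in counting is not given in the sources used here, so reads in the Acaca overlaps cannot be assigned with certainty. In the Scd2 overlap, strand would not separate the reads.

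RefSeq promoter windows (GRCm38.p6, a later build than that of the files) were held for 7 of the 10 genes. The window of Acaca starts from a transcript that begins 65803 bases inside the gene and was not read. The other 6 were searched on both strands for the sterol regulatory element (SRE) TCACNCCAC, the E-box CACGTG, the CCAAT box CCAAT and the GC box GGGCGG, over the 250 bases before the start of the listed transcript, which is the outer end of the RefSeq gene for Elovl5, Elovl6, Acly and Fads2, and lies 619 bases inside it for Fasn and 78 bases inside it for Elovl7. Of 32851 such windows of all genes, 1.05% held the SRE, 6.02% the E-box, 33.8% the CCAAT box and 32.7% the GC box. The SRE letters were in 0 of the 6 windows. The CCAAT box was in those of Fasn (3 matches) and Elovl5 (2), the E-box in that of Elovl5 (1), and the GC box in those of Acly (4), Elovl7 (3) and Fads2 (1), while that of Elovl6 held none of the 4 motifs. The windows of 4 genes that rose from P75 to 6 months are shown, since they rose together by different amounts. That of Elovl7, also called up over this step, is not shown, and its 3 matches are all of the GC box. Capitals mark a motif match on either strand, and in Fasn the matches that start 62 and 59 bases before that start overlap.
Fads2, chr19:10101504-10101753, strand minus: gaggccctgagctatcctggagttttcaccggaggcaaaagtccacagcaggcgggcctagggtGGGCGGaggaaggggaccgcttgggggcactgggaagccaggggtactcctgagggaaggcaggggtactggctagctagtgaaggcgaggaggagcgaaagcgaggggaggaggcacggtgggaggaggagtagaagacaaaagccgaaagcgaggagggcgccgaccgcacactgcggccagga
Elovl5, chr9:77917115-77917364, strand plus: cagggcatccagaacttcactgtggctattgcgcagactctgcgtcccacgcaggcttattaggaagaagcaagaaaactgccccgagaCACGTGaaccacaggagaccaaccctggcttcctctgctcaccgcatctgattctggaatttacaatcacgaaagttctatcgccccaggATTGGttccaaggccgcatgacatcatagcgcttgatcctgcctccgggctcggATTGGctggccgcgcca
Acly, chr11:100528001-100528250, strand minus: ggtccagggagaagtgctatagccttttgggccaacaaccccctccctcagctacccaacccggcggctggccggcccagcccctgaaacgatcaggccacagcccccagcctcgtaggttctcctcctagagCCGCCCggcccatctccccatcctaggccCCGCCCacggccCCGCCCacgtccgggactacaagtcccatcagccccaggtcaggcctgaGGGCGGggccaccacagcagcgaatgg
Fasn, chr11:120824548-120824797, strand minus: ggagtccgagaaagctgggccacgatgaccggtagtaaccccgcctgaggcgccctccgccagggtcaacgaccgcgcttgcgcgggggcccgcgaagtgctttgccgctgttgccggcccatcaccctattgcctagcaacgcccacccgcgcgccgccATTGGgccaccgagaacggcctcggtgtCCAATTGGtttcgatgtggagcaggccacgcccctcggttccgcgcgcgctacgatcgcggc
These matches are letters in a window and were not measured as binding sites. The 4 genes do not share a motif of the search: the GC box is common to Fads2 and Acly, and the CCAAT box to Elovl5 and Fasn.

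Of the genes of de novo synthesis, Acly, which supplies cytosolic acetyl-CoA, had normalized read counts of 3882, 3645 and 3467 at P18, 3159.7, 3444 and 3607 at P75, 5064, 4528 and 4660.2 at 6 months, and 3846, 4019 and 3972 at 24 months. All 3 libraries of 6 months lay above all others. It rose 1.40-fold from P75 to 6 months (log2 change 0.48, SE 0.08, adjusted p = 0.00015) and fell by 0.27 on the log2 scale to 24 months (SE 0.08, adjusted p = 0.034), and the fall was not called without replicate 1 of 6 months (log2 change -0.220) or without replicate 1 of 24 months (-0.25). Between P18 and P75 (log2 change -0.11) and between P18 and 24 months (0.11) it was not called.

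Fasn, which builds palmitate, had 3907, 3859 and 3728 at P18, 3332, 3786 and 3434 at P75, 4818, 4870.4 and 4462 at 6 months, and 3372, 3296 and 3810.0 at 24 months. The libraries of 6 months again lay above all others, and those of the other ages were within the range of 3296 to 3907. Fasn rose 1.34-fold from P75 to 6 months (log2 change 0.42, SE 0.08, adjusted p = 0.00053) and fell by 0.44 on the log2 scale to 24 months (SE 0.08, adjusted p = 0.0034). From P18 to 24 months it was not called with all libraries (-0.14), and it was called lower without replicate 3 of 24 months (-0.20).

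Acaca, which makes the malonyl-CoA used both by Fasn and by the elongases, had 1889, 2132 and 1743 at P18, 1421, 1479.8 and 1276 at P75, 1842, 1923 and 1529.7 at 6 months, and 1360.2, 1360.2 and 1381 at 24 months. P18 was above P75 and 24 months in every library and overlapped with 6 months. Acaca fell by 0.46 from P18 to P75 (SE 0.10, adjusted p = 0.0015), rose by 0.34 to 6 months (SE 0.10, adjusted p = 0.0090) and fell by 0.36 to 24 months (SE 0.10, adjusted p = 0.020), all on the log2 scale. From P18 to 24 months it fell by 0.49 (SE 0.10, adjusted p = 0.00044). The ratio of Fasn to Acaca within a library, not corrected for gene length, was 2.01 ± 0.173 (SD, n = 3) at P18 and 2.53 ± 0.175 at P75, 2.69 ± 0.202 at 6 months and 2.55 ± 0.180 at 24 months, with all libraries of P18 (1.81 to 2.14) below all later ones (2.35 or above).

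The 3 elongases took different courses. Elovl5, which elongates polyunsaturated fatty acids, had 1964, 1823 and 1283 normalized read counts at P18, 1909, 1718 and 2074 at P75, 3112, 2788 and 2998 at 6 months, and 2683, 3051 and 3385 at 24 months. The values fell into a low range at P18 and P75 and a high range at 6 and 24 months, with no overlap between the ranges. Elovl5 rose 1.56-fold from P75 to 6 months (log2 change 0.64, SE 0.13, adjusted p = 0.00075) and 1.82-fold from P18 to 24 months (0.86, SE 0.13, adjusted p = 3.1e-05). It was not called between 6 and 24 months (0.03), and between P18 and P75 (0.19) it was called only without replicate 1 of P18 (0.31) or with the libraries scaled to the same total (0.31).

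Elovl6, which lengthens the palmitate made by Fasn, was highest at P18, with 1898, 1836 and 1349. It had 1122, 1241 and 1413 at P75, 1184, 999 and 1148 at 6 months, and 1013, 1253 and 1394 at 24 months, and neighbouring ages in this order overlapped. It fell by 0.42 on the log2 scale from P18 to P75 (SE 0.14, adjusted p = 0.023) and by 0.47 from P18 to 24 months (SE 0.14, adjusted p = 0.0070), and the former was not called with the libraries scaled to the same total (-0.29, adjusted p = 0.113). Its changes from P75 to 6 months (-0.18, 95% interval -0.47 to 0.11) and from 6 to 24 months (0.13, -0.16 to 0.42) were not called.

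Elovl7, an elongase of saturated and monounsaturated chains, had 793, 748 and 505 at P18, 453, 478 and 572 at P75, 717, 602 and 549 at 6 months, and 552, 638 and 610.0 at 24 months. All neighbouring ages overlapped. It fell by 0.42 on the log2 scale from P18 to P75 (SE 0.15, adjusted p = 0.032), a call that was lost without replicate 1 of P18 (-0.30), without replicate 2 of P18 (-0.34), without replicate 1 of P75 (-0.36) or with the libraries scaled to the same total (-0.30). Its rise to 6 months (0.31, SE 0.15, adjusted p = 0.090) was not called with the replicate number as a block (adjusted p = 0.10) nor without replicate 1 or 2 of P75 or replicate 1 or 2 of 6 months (0.20 to 0.33), at a false discovery rate of 0.05, without the filter on low values or with quantile normalization. From P18 to 24 months it was not called with all libraries (-0.16), and it was called lower without replicate 3 of P18 (-0.36, adjusted p = 0.0143).

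Within each library, the ratio of Elovl5 to Elovl6 was 1.04, 0.993 and 0.951 at P18. It was 1.70, 1.38 and 1.47 at P75, 2.63, 2.79 and 2.61 at 6 months, and 2.65, 2.44 and 2.43 at 24 months. P18, P75 and 6 months did not overlap with each other, and 6 and 24 months did. An exact test of 3 against 3 libraries cannot give a p below 0.1, so no test of these ratios is given.

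**Figure D2:**
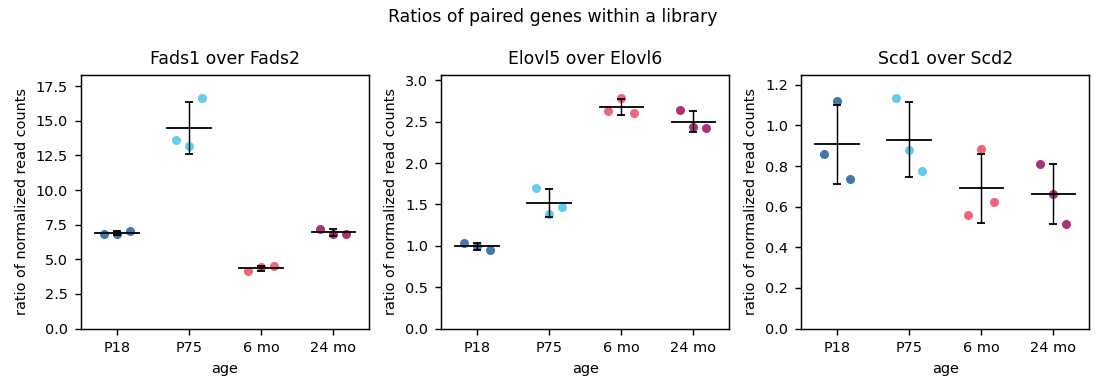
Ratio of the normalized read counts of paired genes in the same library (y axes, linear from 0) at 4 ages (x axes); points are libraries, lines the mean of 3 and bars ± 1 SD. Fads1 over Fads2 is highest at P75 (13.2 to 16.7) and lowest at 6 months (4.14 to 4.50), Elovl5 over Elovl6 is near 1 at P18 and above 2.4 at 6 and 24 months, and Scd1 over Scd2 overlaps between all ages.

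Scd1 and Scd2, the delta-9 desaturases that make oleate from stearate, gave more reads than any other of the 10 genes, together 65.7% to 78.4% of the reads on the 10, not corrected for gene length. Scd2, the main form described in brain, had normalized read counts of 27596, 27344 and 16711 at P18, 28289, 28029 and 31769 at P75, 44369, 45342 and 37650.4 at 6 months, and 35155, 39344 and 37474 at 24 months. Every library of 6 and 24 months was above every library of P18 and P75. It rose 1.44-fold from P75 to 6 months (log2 change 0.53, SE 0.17, adjusted p = 0.015) and 1.60-fold from P18 to 24 months (0.68, SE 0.17, adjusted p = 0.0022), and without replicate 3 of P18 the latter was still called at 0.44. The changes from P18 to P75 (0.33, 95% interval -0.02 to 0.69) and from 6 to 24 months (-0.18, -0.54 to 0.18) were not called. The former was called without replicate 1 of P18 (0.46) or replicate 2 of P18 (0.45).

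Scd1 had 23716, 30689 and 12336 at P18, 32161, 24674 and 24622 at P75, 24909, 40071 and 23486 at 6 months, and 28516, 26127 and 19379 at 24 months. Its libraries overlapped between all ages, and 1 library stood away from the other 2 at P18 (replicate 3, low) and at 6 months (replicate 2, high). On the deposited scale no change was called with all libraries, with 95% intervals on the log2 scale of -0.20 to 0.95 from P18 to P75, -0.49 to 0.66 to 6 months, -0.81 to 0.34 to 24 months, and -0.35 to 0.80 over the whole span. The change from P18 to P75 was called with the libraries scaled to the same total (0.50, adjusted p = 0.0778) or without replicate 2 of P18 (0.65), and without replicate 3 of P18 it was near 0 (-0.0024). The SE of 0.27 was the largest of the 10 genes. The ratio of Scd1 to Scd2 was 0.907 ± 0.196 (SD, n = 3) at P18 and 0.931 ± 0.186 at P75, and then 0.690 ± 0.171 at 6 months and 0.664 ± 0.147 at 24 months, with overlapping libraries.

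Fads1, the delta-5 desaturase, had 3933, 4094 and 2705 at P18, 5152, 4831 and 4555 at P75, 5670.0, 6411 and 5239 at 6 months, and 5160.3, 5246 and 5146 at 24 months. All libraries of P18 were below all later ones. Fads1 rose 1.38-fold from P18 to P75 (log2 change 0.46, SE 0.13, adjusted p = 0.0088), and it was 1.47-fold higher at 24 months than at P18 (0.56, SE 0.13, adjusted p = 0.0012). Without replicate 3 of P18, these log2 changes were 0.27 and 0.37, both still called. The change from P75 to 6 months (0.25, adjusted p = 0.11) was called when the replicate number was a block (adjusted p = 0.071), without replicate 3 of 6 months (0.32), with the libraries of the 2 ages alone and with the libraries scaled to the same total.

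Fads2, which acts before Fads1 on linoleic and alpha-linolenic acid, had 578, 598 and 384 at P18, 378, 367 and 273 at P75, 1369.8, 1444 and 1165 at 6 months, and 714, 769.8 and 756 at 24 months. No neighbouring ages overlapped, although replicate 3 of P18 (384) lay only just above replicate 1 of P75 (378). Fads2 fell by 0.60 on the log2 scale from P18 to P75 (SE 0.15, adjusted p = 0.0052), rose 3.92-fold to 6 months (log2 change 1.97, SE 0.15, adjusted p = 1.4e-07) and fell by 0.82 to 24 months (SE 0.15, adjusted p = 0.0029). At 24 months it was 1.46-fold higher than at P18 (0.55, SE 0.15, adjusted p = 0.0052), and without replicate 3 of P18 this log2 change was 0.35 and still called.

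The balance of the front-end desaturases differed between ages. Reads on Fads1 were 6.81, 6.85 and 7.05 times those on Fads2 at P18, 13.6, 13.2 and 16.7 times at P75, 4.14, 4.44 and 4.50 times at 6 months, and 7.22, 6.82 and 6.80 times at 24 months, not corrected for gene length. P75 lay above and 6 months below all other libraries, while P18 and 24 months overlapped.

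**Figure D3:**
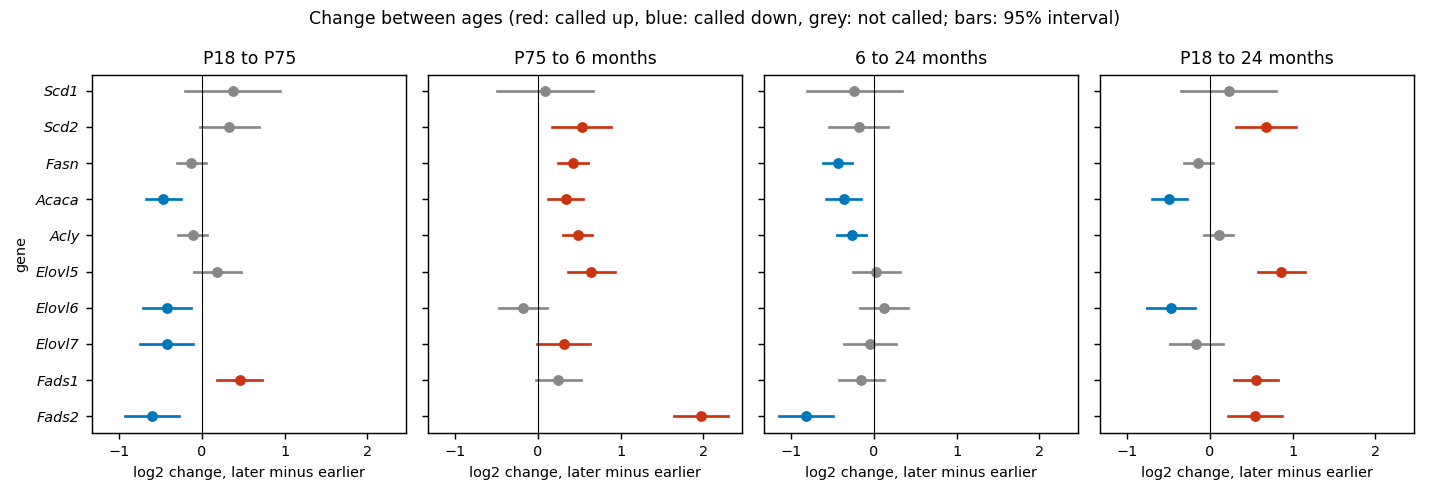
Log2 change, later minus earlier age, of each of the 10 genes (rows) in 4 comparisons (panels), from limma on log2(normalized read count + 1) with 3 libraries per age; bars are 95% intervals, red is called up, blue called down and grey not called. The comparisons share libraries. Fads2 from P75 to 6 months (1.97) is the farthest point from 0.

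Counted over the 10 genes, calls in 1 direction were most frequent from P75 to 6 months. In that comparison, 7 were called up (Scd2, Fasn, Acaca, Acly, Elovl5, Elovl7 and Fads2) against 31.2% of all genes tested, and 0 down against 29.4%. The median log2 change was 0.38 against 0.01 for all genes tested. From 6 to 24 months, 0 were called up (16.6% of all genes) and 4 down (12.7%), with a median of -0.21 against 0.03. Without replicate 2 of 6 months, 4 were still called down, with a median of -0.10. Without replicate 1 of 6 months, 3 were called down, and all genes were called up at 9.94% and down at 7.0%. These comparisons share the libraries of 6 months, which enter them with opposite sign.

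From P18 to P75, 1 was called up (25.9% of all genes) and 4 down (22.9%), namely Acaca, Elovl6, Elovl7 and Fads2, with a median of -0.12 against 0.02. Without replicate 1 of P18, and likewise without replicate 2 of P18, the split was 3 up and 3 down. Without replicate 1 of P75 the median was -0.071, with 1 up and 3 down. Scaling the libraries to the same total turned this split to 4 up (Scd1, Scd2, Elovl5 and Fads1) and 2 down (Acaca and Fads2), with 32.4% of all genes called up and 12.5% down, and it moved the median of all genes to 0.14. From P18 to 24 months, 4 were called up (34.7% of all genes) and 2 down (34.3%), with a median of 0.17 against -0.01. Without replicate 3 of P18 the counts were 4 up and 3 down, and the median was -0.04, while without replicate 2 of P18 it was 0.31.

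Mbp took a smaller share of the reads after P18, and the summed 10 genes a larger one, with no overlap between the libraries of P18 and the later ones for either. Most of that sum is Scd1 and Scd2: the other 8 genes summed to a normalized read count of 15163.9 to 18843.8 in the P18 libraries, which overlapped with 16926.7 to 17346.4 for P75 and 18700.6 to 20454.3 for 24 months, and 21750.8 to 23775.8 for 6 months lay above. Together the 10 genes held 0.256% ± 0.0521 (SD, n = 3) of the reads on genes at P18. Their share was 0.327% ± 0.0133 at P75 and 0.418% ± 0.0400 at 6 months, and it was 0.350% ± 0.0131 at 24 months. Mbp, the myelin basic protein gene, held 15.1% ± 5.66, 5.61% ± 1.23, 6.32% ± 1.87 and 6.40% ± 1.09 at the same ages. Of the 7 other myelin genes, 0 were called up and 5 down from P18 to P75, against 25.9% and 22.9% of all genes tested.

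Set against the sum of the 7 myelin genes in the same library, the 10 genes summed to 26.9%, 21.9% and 26.6% at P18. They summed to 48.8%, 67.6% and 66.3% at P75, and 40.7%, 45.62% and 45.64% at 24 months. At 6 months the lowest library was at 48.3% and the mean was 53.7% ± 5.92 (SD, n = 3). The P18 libraries were below all others, those of 24 months lay between them and the rest, and P75 and 6 months overlapped. Replicate 3 of P18 was the lowest in normalized read count. Set against the myelin genes, its sum of the 10 genes was within the range of the other 2. By single gene, it was the highest of its age for Fasn, Acaca, Acly, Elovl5, Elovl6, Elovl7, Fads1 and Fads2. For Acly it had 2.087% against 1.486% and 1.042%, and for Elovl7 0.304% against 0.3034% and 0.2137%. It was the lowest for Scd1 (7.424% against 9.08% and 8.769%), and only for Scd2 was it within the range. The myelin sum was mostly Mobp, the myelin-associated oligodendrocyte basic protein gene, which made up 66.4% to 75.9% of it at P18 and 82.1% to 86.1% at 24 months. With Mobp left out of the sum, an alternative chosen after seeing the data, the 10 genes came to 79.2% to 91.2% of the other 6 at P18, 226% to 262% at P75, 245% to 268% at 6 months and 255% to 305% at 24 months, so that P18 was again below all others but 24 months no longer lay under P75 and 6 months.

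On the scale with Mobp, 5 of the 10 genes had every library of 24 months above every library of P18. Their means were higher by 2.43-fold for Elovl5, 2.13-fold for Scd2, 1.95-fold for Fads1, 1.95-fold for Fads2 and 1.56-fold for Scd1. The libraries of these ages overlapped for Acly (1.39-fold), Elovl7 (1.19-fold), Fasn (1.17-fold), Elovl6 (0.967-fold) and Acaca (0.931-fold). Acaca and Elovl6, called down from P18 to 24 months in normalized read count, had 0.609% to 1.05% and 0.525% to 0.812% of the myelin sum at P18, and 0.672% to 0.815% and 0.501% to 0.823% at 24 months. These folds and overlaps depend on Mobp: without it, all 10 genes had every library of 24 months above every library of P18, from 1.79-fold for Acaca and 1.83-fold for Elovl6 to 4.03-fold for Scd2 and 4.59-fold for Elovl5.

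**Figure D4:**
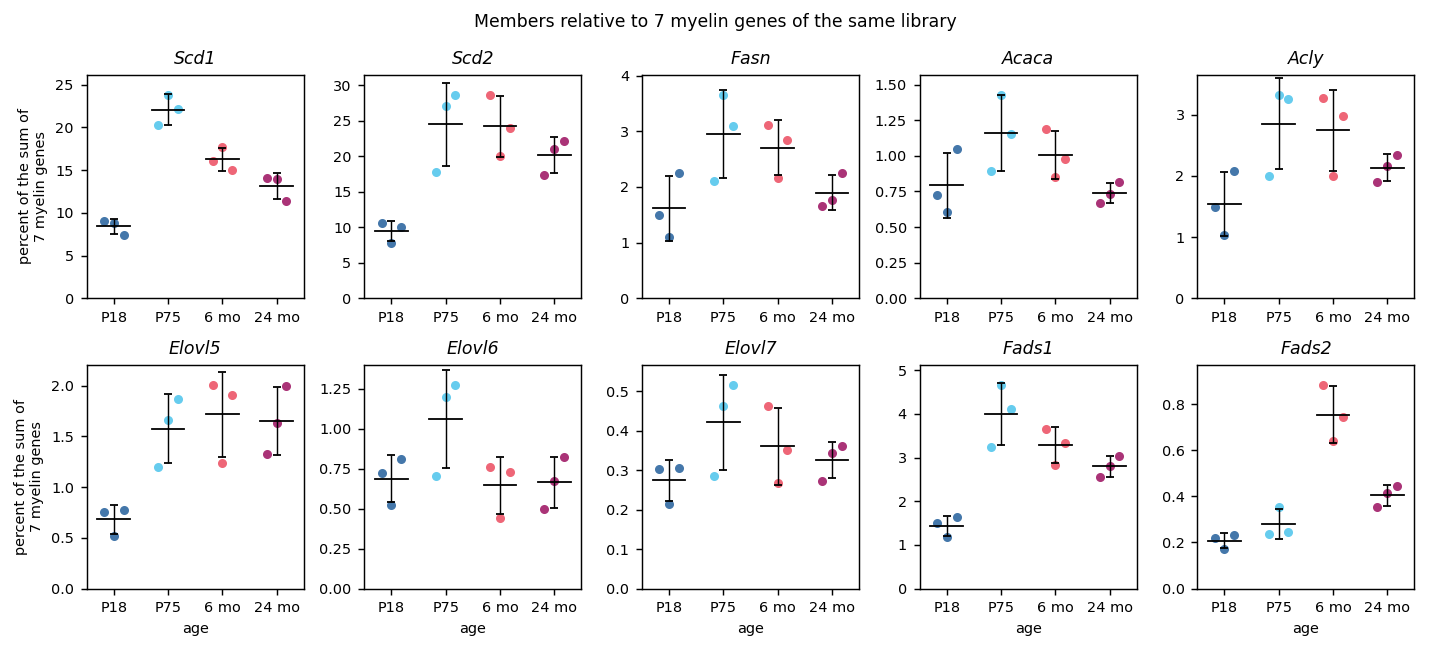
Normalized read count of each of the 10 genes as a percent of the sum of Mag, Mog, Cnp, Mobp, Cldn11, Opalin and Ermn in the same library (y axis, linear from 0) at 4 ages (x axis); points are libraries, lines the mean of 3 and bars ± 1 SD. Scd1, Scd2, Elovl5, Fads1 and Fads2 at P18 lie below all later libraries, and Fads2 stands highest at 6 months (0.639% to 0.883%).

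Divided by the length of the merged exons, the levels of the genes can be set beside each other. At 6 months, normalized reads per kilobase were 7785 ± 768 (SD, n = 3) for Scd2 and 6098 ± 1901 for Scd1, which did not differ beyond their spread, followed by Fads1 with 1671 ± 172. Acly (899.7 ± 52.9), Fads2 (879.5 ± 95.9) and Elovl5 (842 ± 46.6) lay within their spread of each other, and Fasn (479 ± 22.6) below them. Elovl6 (187 ± 16.5) and Acaca (173 ± 20.4) were alike within their spread, and Elovl7 (115 ± 15.9) was lowest. Fads2 held place 7 of 10 at P18 (345 ± 78.4) and at P75 (225 ± 38.2), and place 5 at 6 months, or 6 if the longest transcript was used for length. The annotated Fads2 exons sum to 1508 bases, fewer than those of any other of the 10 genes. These lengths are those of GENCODE vM1 and may differ from the gene models on which the authors counted, which would shift the places.

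Paralogues of the 10 genes were followed in the same way. Scd3, a further delta-9 desaturase gene, had 122 to 168 normalized read counts at P18 and 535 to 582 at P75, with no overlap. It rose 4.12-fold over this step (log2 change 2.04, SE 0.15, adjusted p = 1.4e-07) and was 5.57-fold higher at 24 months than at P18 (2.48, SE 0.15, adjusted p = 1.2e-09), while Scd4 stayed between 7.78 and 18.1 and was not called in any of the 4 comparisons. From P75 to 6 months Scd3 was not called (0.30, adjusted p = 0.10), and with the replicate block it was (adjusted p = 0.0971), as it was without replicate 1 of 6 months (0.39) or replicate 3 of 6 months (0.37).

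Fads3, the third gene of the Fads cluster, rose in each of the first steps, from 169 to 223 at P18 to 330.1 to 352 at P75 (log2 change 0.78, SE 0.11) and 495 to 588 at 6 months (0.70, SE 0.11). At 24 months it was 616 to 644, 3.16-fold above P18 (1.66, SE 0.11, adjusted p = 2.7e-09). Fads6 was low, at 8.04 to 12.4 at P18 and 50.6 to 64.8 at 6 months, and rose 3.68-fold from P18 to 24 months (1.88, SE 0.25, adjusted p = 8.1e-06). Of the elongase paralogues, Elovl4, needed for very long chains, rose 2.03-fold from P18 to 24 months (1.02, SE 0.08), and Elovl1, an elongase of saturated very long chains, fell by 1.09 on the log2 scale from P18 to P75 (SE 0.11, adjusted p = 3.0e-06). Elovl2 rose by 0.39 from P75 to 6 months (SE 0.11). Acacb, the carboxylase at mitochondria, was not called in any of the 4 comparisons, and Elovl3 was under the mean of 10 and not tested (0.00 to 11.1).

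The wider pathway was read from 6 lists of genes, in which the 10 genes are included where they belong. Of 11 genes of substrate supply (acetyl-CoA, malonyl-CoA and NADPH), 0 rose and 6 fell from P18 to P75, where 25.9% of all genes rose and 22.9% fell. To 6 months, 7 rose and 2 fell (31.2% and 29.4% of all genes), and to 24 months, 0 rose and 7 fell (16.6% and 12.7%). The list also holds Mlycd, the gene of malonyl-CoA decarboxylase, which breaks malonyl-CoA down and does not supply it. Mlycd was 1 of the 2 falls to 6 months (log2 change -0.28, SE 0.09, adjusted p = 0.013). The 7 falls were 3 without replicate 1 of 6 months and 4 without replicate 1 of 24 months, the 2 falls were 1 without any 1 of the P75 libraries or without replicate 1 or 3 of 6 months, and from P18 to P75 there was 1 rise without replicate 3 of P18 or replicate 1 of P75. Slc25a1, the mitochondrial citrate carrier, was 0.462-fold of its P18 level at P75 (SE of the log2 change 0.11, adjusted p = 2.7e-06), going from 1378 to 1978 normalized read counts to 722 to 823. Idh1, the cytosolic isocitrate dehydrogenase that yields NADPH, fell by 1.20 over the same step (SE 0.12, adjusted p = 2.0e-06). G6pdx, which opens the pentose phosphate pathway, rose by 0.42 from P75 to 6 months (SE 0.08, adjusted p = 0.00056) and fell by 0.40 to 24 months (SE 0.08, adjusted p = 0.0054). Scaled to the same total, the list had 1 rise and 4 falls from P18 to P75. On the deposited scale, with Acly, Acaca and Fasn left out, 8 genes remained. Of these, 0 rose and 5 fell from P18 to P75, 4 rose and 2 fell to 6 months, and 0 rose and 4 fell to 24 months, against the same shares of all genes.

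Of 12 tested genes of the elongation cycle, 9 rose and 1 fell from P75 to 6 months (31.2% and 29.4% of all genes), and 8 rose and 3 fell from P18 to 24 months (34.7% and 34.3%). With Elovl5, Elovl6 and Elovl7 left out, 9 genes remained, of which 7 rose and 1 fell in the former comparison and 7 rose and 2 fell in the latter. Of the later steps of the cycle, these genes rose over the whole span: the ketoreductase gene Hsd17b12 2.49-fold (log2 change 1.31, SE 0.09), the dehydratase gene Ptplad1 (Hacd3) 2.52-fold (1.33, SE 0.10) and the enoyl reductase gene Tecr 2.48-fold (1.31, SE 0.13). Ptpla (Hacd1), another dehydratase gene, fell by 1.14 (SE 0.14, adjusted p = 3.2e-06).

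Of 12 genes of desaturation and its electron donors, 5 rose and 1 fell from P75 to 6 months (31.2% and 29.4% of all genes), with 2 falls without replicate 1 of 6 months, and 6 rose and 4 fell from P18 to 24 months (34.7% and 34.3%). With Scd1, Scd2, Fads1 and Fads2 left out, 8 genes remained, of which 3 rose and 1 fell in the former comparison and 3 rose and 4 fell in the latter. From P18 to 24 months, the median log2 change was -0.37 for these 8 and 0.39 for the 12, or 0.098 for the 12 without replicate 3 of P18. The 4 that fell were Fa2h, Cyb5, Cyb5r3 and Cyb5b, which are not desaturase genes (Cyb5b was named after its value was seen). Cyb5, the cytochrome b5 that passes electrons to the desaturases, fell by 1.03 (SE 0.09, adjusted p = 3.7e-08). Fa2h, which hydroxylates the fatty acids of myelin galactolipids, fell by 1.04 from P18 to P75 (SE 0.13, adjusted p = 2.4e-05).

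Of 14 regulators, 4 rose and 2 fell from P75 to 6 months, where 31.2% of all genes rose and 29.4% fell. Srebf1, whose product activates fatty acid synthesis genes, had 415 to 478 normalized read counts at P18 and 1021 to 1108 at P75, a 2.39-fold rise (log2 change 1.26, SE 0.09, adjusted p = 8.2e-08). Srebf2, better known for cholesterol synthesis genes, had 599 to 768 at P75, 2115 to 2469 at 6 months and 1451 to 1672 at 24 months. It rose 3.36-fold from P75 to 6 months (1.75, SE 0.11, adjusted p = 2.3e-08) and fell by 0.55 afterwards (SE 0.11, adjusted p = 0.0037). Scap, which escorts both proteins, rose in each step, by 0.70, 0.46 and 0.33 (SE 0.09 for each), the last not called with the libraries scaled to the same total.

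Of 13 genes of activation, uptake and binding, 7 rose and 6 fell from P18 to 24 months, against 34.7% and 34.3% of all genes. Acsl5, an acyl-CoA synthetase gene, rose 2.94-fold (1.55, SE 0.08, adjusted p = 4.2e-10) and the fatty acid binding protein gene Fabp5 fell by 1.52 (SE 0.09, adjusted p = 1.6e-09). Dbi, the acyl-CoA binding protein gene, fell by 1.55 from P75 to 6 months (SE 0.12, adjusted p = 1.2e-07). Of 15 genes listed for mitochondrial beta-oxidation, the route that breaks fatty acids down, 4 rose and 9 fell from P75 to 6 months (31.2% and 29.4% of all genes). Dci (Eci1) fell by 0.96 (SE 0.11, adjusted p = 3.2e-06). Cpt1c, the brain form of carnitine palmitoyltransferase, rose by 0.44 (SE 0.09, adjusted p = 0.00051). Cpt1c is in the list by its family, and its product lies at the endoplasmic reticulum and not at mitochondria. The median log2 change over that step was 0.50 for the elongation cycle, 0.30 for substrate supply, 0.27 for desaturation and -0.23 for beta-oxidation. That of all genes tested was 0.01, and without replicate 2 of 6 months that of desaturation was 0.15. With Acly, Acaca and Fasn left out, the median of substrate supply was 0.026 over 8 genes, near that of all genes. For the elongation cycle without Elovl5, Elovl6 and Elovl7, the median was 0.62 over 9 genes. For desaturation without Scd1, Scd2, Fads1 and Fads2, the median was 0.205 over 8 genes.

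**Figure D5:**
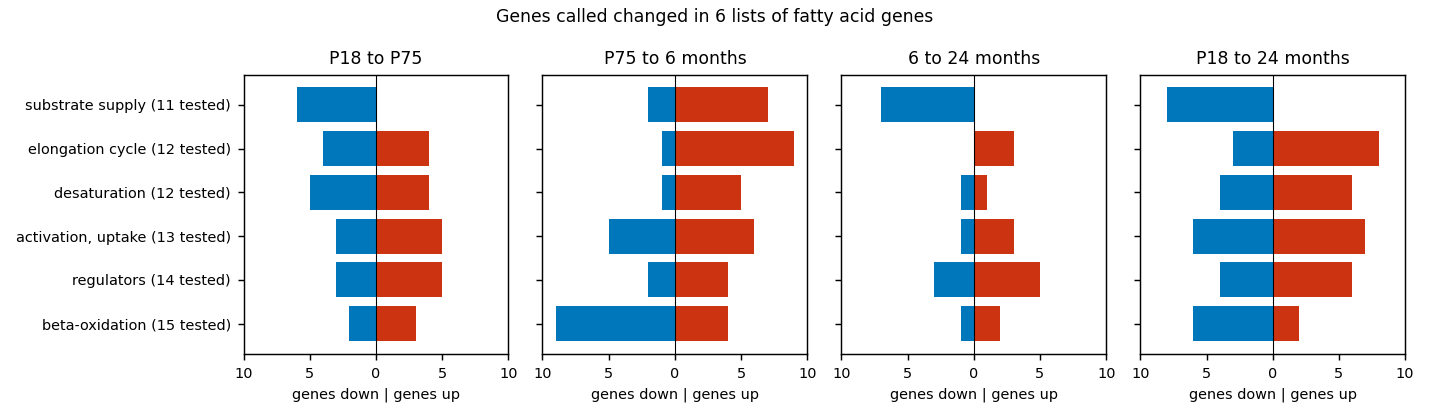
Number of genes called down (blue, to the left of 0) and up (red, to the right) in 6 lists of fatty acid genes (rows, with the number tested) for 4 comparisons between ages (panels); the 10 genes described in the text are included in the first 3 lists. From P75 to 6 months the elongation cycle has 9 genes up and 1 down, and beta-oxidation has 4 up and 9 down.

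The course of each gene over the 4 age means was compared with those of 11305 genes with a mean of at least 100, as the root mean square difference of log2 values after each gene's own mean was subtracted. The nearest genes to Fads2 were Ipo7 (0.020) and Diap1 (0.051), the largest second distance among the 10 genes. The nearest to Scd2 were Luzp2 (0.0096) and Kcnj16 (0.0096), and those to Elovl5 were Hs2st1 (0.017) and Sypl (0.019). Fasn was nearest to Ubxn2a (0.020) and Acly to Abce1 (0.022), Acaca to Smap2 (0.012), Fads1 to Urb2 (0.019), Scd1 to Pi4ka (0.016), Elovl6 to Arrb2 (0.015) and Elovl7 to Phospho2 (0.0070). Among the 10 genes themselves, Fasn and Acly were the closest pair (0.096) and Fads2 and Elovl6 the farthest (0.86).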

How the data were processed

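The authors aligned the reads to mm9, counted them on genes with HTSeq and normalized by size factors from DESeq, and the deposited signal is this normalized read count for each gene and library, neither log transformed nor corrected for length. The submitters' processing notes name TopHat2 2.0.8, SAMtools 0.1.19 and HTSeq 0.5.4p1. Within a library, 100% of the values were whole multiples of the value of 1 read (tolerance 0.1 read), which gave the depth. No columns were left unused. Library pairs of 1 age differed by more than sampling noise (chi-square per gene 8.77 to 124, where noise alone gives about 1).

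Ages were compared with limma 3.58.1 (R 4.3.3; trend, empirical Bayes) on the log2 of the normalized read count plus 1. The fit took the 14634 genes whose mean reached 10, with all 12 libraries in 1 fit and age as the only term. Benjamini-Hochberg adjustment ran over all genes tested, at a false discovery rate of 0.1, and fold changes of normalized read counts are on this scale. Folds relative to the myelin sum are ratios of age means, with no test. Intervals are 95% intervals of the fit. Exact tests of 3 against 3 libraries cannot go below a two-sided p of 0.1 and were not used. Genes named were the 10 members, their paralogues, up to 3 called genes (mean of 100 or more) in each direction of each list and comparison, from which a selection is given, and the genes nearest in profile. Fads6 and Scd4, under that mean, are named as paralogues. The members, lists and tests were chosen with earlier results of these data known. The methods were tested on simulated data, in which some genes were changed 3-fold at P75. Among the 10 members only Fads2 had a change of that size, and smaller changes were not simulated. The results of 1 gene of the myelin list are not reported here, and the myelin sum was taken over the other 7.

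Deviations from the age means correlated between libraries of the same number at 0.10 to 0.19 for P75 and 6 months, over the limit of 0.1 set for treating numbers as pairs, and below it for the other comparisons (-0.21 to 0.029), although the animals differ. Alternatives were pseudocounts of 0.5 and 10, no filter and a filter for a mean over 100, the libraries of 2 ages alone, the replicate block, scaling to the same total, quantile normalization, TMM factors, edgeR 4.0.16 and DESeq2 1.42.0 on recovered reads, calls at 0.05, the longest transcript for length, and each library left out in turn. Leaving Mobp out of the myelin sum was chosen after seeing the data. Gene spans and exons are from GENCODE vM1 on NCBIM37.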

Additional observations from a re-analysis of the deposited data

How the results depend on the processing

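Of the 10 genes, 5 were called for the step P18 to P75, 7 for P75 to 6 months, 4 for 6 to 24 months and 6 for P18 to 24 months, and with single libraries left out it was 4 to 6, 6 to 8, 3 to 4 and 6 to 7. With the replicate block it was 5, 7, 4 and 6, but the 7 for P75 to 6 months were not the same genes. Fads1 gained a call (limma adjusted p = 0.0714) and Elovl7 lost it (0.101). Of 720 values of single members under an alternative, 682 kept their direction and side of the threshold, 13 gained a call, 15 lost it and 10 changed direction, and the cause was not tested. Scaled to the same total, Acly from P18 to P75 was 0.018 and Elovl5 from 6 to 24 months -0.0097, both uncalled. The all-gene calls were 53.0% up from P18 to P75 and 56.8% up from 6 to 24 months, against 72.2% and 46.3% with that scaling. From P18 to P75, Elovl2 was -0.0088 with quantile normalization, Elovl4 was -0.0027 with TMM factors and -0.0057 with edgeR, and Scd4 was -0.067 with quantile normalization and -0.0068 with edgeR.

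With single libraries left out, the log2 change of Scd1 ran from -0.0024 to 0.65 from P18 to P75, from -0.16 to 0.23 to 6 months, from -0.38 to 0.0097 to 24 months and from -0.15 to 0.51 over the whole span. From 6 to 24 months it ran from -0.050 to 0.12 for Elovl5, from -0.13 to 0.059 for Elovl7 and from -0.0037 to 0.31 for Acacb. From P18 to P75 it ran from -0.057 to 0.13 for Elovl2, from -0.046 to 0.043 for Elovl4 and from -0.18 to 0.18 for Scd4. All-gene calls from 6 to 24 months were 2435 up and 1852 down. They were 1454 and 1024 without replicate 1 of 6 months and 1739 and 1082 without replicate 1 of 24 months, each with 3 members down, and 1582 and 1181 without replicate 2 of 6 months and 1394 and 1098 without replicate 2 of 24 months, each with 4 down. The 3 libraries per age and, for Fads2 at P75, as few as 247 reads limit the precision.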
